A study of Homo sapiens with 12 samples.

Results

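The comparison described here sets the codon occupancy of disome footprints against that of monosome footprints in unperturbed cells. Libraries were chosen by genotype alone, and the 6 wild-type (WT) libraries of the 12 in the series were used, with the 61 sense codons matched by their letters. They comprised 4 WT monosome libraries, numbered 1 to 4, and 2 WT disome libraries, numbered 1 and 2. All came from HEK293, a transformed human embryonic kidney line that the study's methods call HEK-293T, grown in serum-containing DMEM with no drug treatment before lysis. Cells of both footprint kinds were lysed in cycloheximide, which arrests elongating ribosomes, the lysates were treated with RNase I, and RNA of monosome or disome length was cut from a gel. The other 6 libraries, used only at the end, came from the same line with THUMPD1 deleted (KO), again 4 monosome and 2 disome. THUMPD1 is a partner of the acetyltransferase NAT10 in modifying Leu and Ser tRNAs. The study speaks of biological replicates, while the sample labels do not say whether libraries came from separate cultures. The p-values therefore measure a spread between libraries that may be partly technical. In the limma fits that spread was pooled in part across codons, so it is not a codon's own spread alone.

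A translating ribosome covers a short stretch of mRNA, and more footprints are found on codons where ribosomes dwell longer. When the ribosome ahead is slow, the ribosome behind can run into it, and the stacked pair protects a longer fragment, the disome footprint. Cells sense such collisions, through ZNF598 and GCN1 among others, and respond by quality control of the nascent chain or by stress signalling. A codon therefore has both a dwell, seen in monosomes, and a share of collisions, seen in disomes. Below, dwell and collisions stand for relative occupancy in monosome and in disome libraries. Neither dwell time nor collision frequency was measured. The question was which amino acids and which wobble classes weigh more in collisions than in dwell.

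The occupancy of a codon was a linear ratio scaled so that codons averaged about 1 per library, and it was assigned to the ribosomal A site, where the next aminoacyl-tRNA is bound, of the leading ribosome in the case of disomes. The site rests on the study's description, since no column of the tables states a site or an offset. The names of both tables carry the same tag, which may be a shared offset from the 5′ end. On the longer disome fragment such an offset could place the codon on the trailing ribosome, and which ribosome the disome values refer to was not tested. Because each footprint kind lay in a table of its own, log2 occupancies were centred on the median of their library before any comparison. A difference below is the mean centred log2 occupancy of the 2 disome libraries minus that of the 4 monosome libraries, so 1 unit is a doubling relative to the median codon. Centring added 0.18 to every difference. Footprint kind, size selection and table cannot be told apart in this design. Depth was not given, so no counting error was computed. The tables hold codons and no genes, so the cell line could not be checked against its markers.

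Disome occupancies were related to monosome occupancies and more widely spread. Across codons, monosome libraries correlated with each other at r = 0.812 to 0.952 and the 2 disome libraries at r = 0.915, while disome and monosome libraries correlated at r = 0.585 to 0.715. These values describe 61 codons that share a library and are no test. The SD of log2 occupancy across codons was 0.258 to 0.413 in the monosome libraries, and it was 0.556 in disome library 1 and 0.455 in disome library 2. The line of mean disome on mean monosome values had a slope of 1.10. GAA, a Glu codon, was the most occupied codon in all 6 libraries. At the other end, AUU, an Ile codon, ranked 61 of 61 in every monosome library but 47 and 55 in the disome libraries, where the lowest places were held by the Thr codon ACC in library 1 and the Cys codon UGU in library 2.

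Codons were tested on centred values directly, without taking out the line above or the wider disome spread. By limma at an adjusted p under 0.05, 25 of 61 codons differed between footprint kinds. Of these, 16 were higher in disomes, 26.2% of the codons tested, and 9 were lower, 14.8%. Without centring, the same test called 10 higher and 19 lower. In 18 codons, 29.5% of all, both disome libraries lay above all 4 monosome libraries, and in 11, 18% of all, both lay below. The number of calls leaned on the disome libraries: without WT disome replicate 1 it was 12, made of 10 higher and 2 lower, and without WT disome replicate 2 it was 31. On ranks within a library it was 8, and the calls kept there were those of CCU, GGU and GGC with Ile AUC, and of UGU, UAC and UAU with Thr ACG. The exact permutation test over the 15 assignments of 6 libraries cannot give a p below 0.0667.

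**Figure D1:**
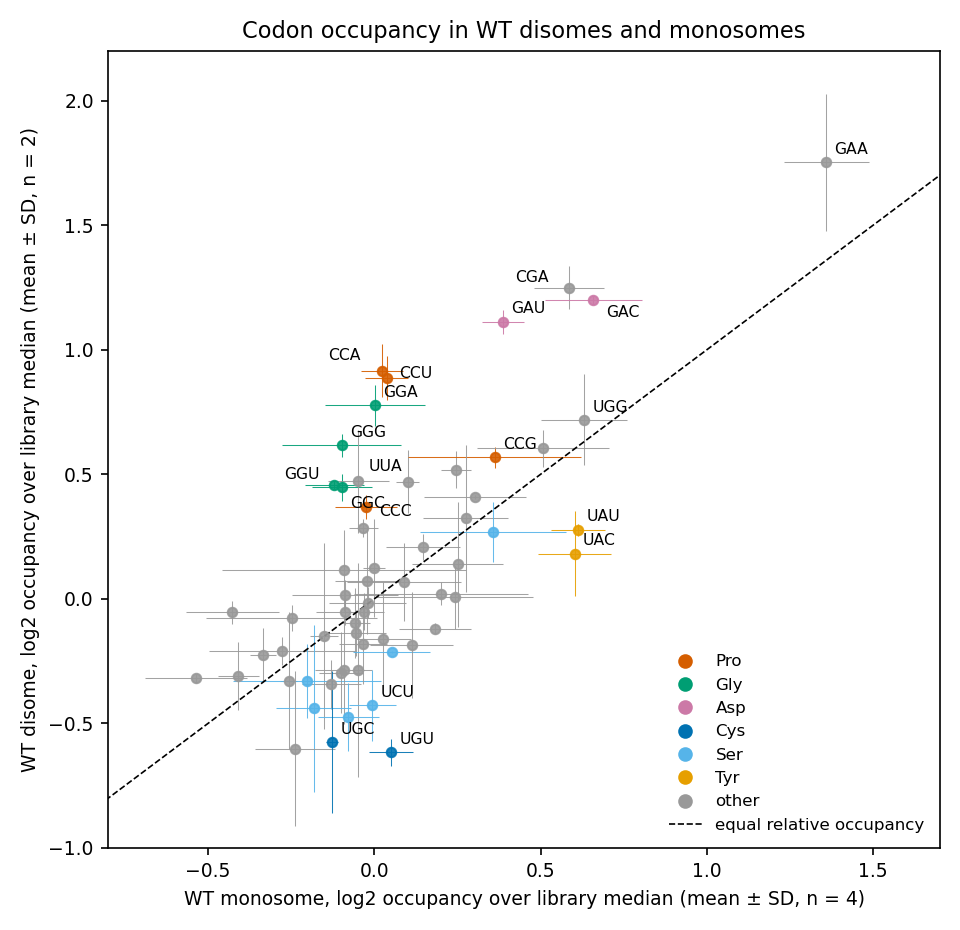
Mean log2 occupancy over the library median of each of the 61 codons in WT monosomes (horizontal, n = 4) and WT disomes (vertical, n = 2), with SD as bars and the dashed line marking equal relative occupancy. CCA, CCU and the Gly codons sit above the line at monosome occupancies near the library median, the Asp codons above it at higher monosome occupancy, and the Tyr and Cys codons below it.

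Averaged over synonymous codons, 7 of the 20 amino acids differed by limma at an adjusted p under 0.05. Gly, Asp, Pro and Lys were higher in disomes, 4 of 20 or 20%, and Cys, Tyr and Ser were lower, 3 of 20 or 15%. Gly had a difference of 0.65 (SE 0.0857, limma adjusted p = 2.32e-05), a 1.57-fold rise, followed by Asp at 0.63 (SE 0.0805) and Pro at 0.59 (SE 0.0779), both with a limma adjusted p of 2.32e-05. These 3 lay within their SEs of each other, and without WT monosome replicate 1 Asp stood at 0.66 and Gly at 0.59. Lys followed at 0.29 (SE 0.0721, limma adjusted p = 0.00395). At the other end stood Cys at -0.56 (SE 0.0817, limma adjusted p = 4.94e-05), Tyr at -0.38 (SE 0.0825, limma adjusted p = 0.00184) and Ser at -0.26 (SE 0.0769, limma adjusted p = 0.0134). In all 7 the disome libraries lay entirely on one side of the monosome libraries. That was also so for Ile, Leu, Arg and Val, which did not pass. The calls of Gly, Pro, Cys and Tyr held under each of the 5 other scalings of the libraries. That of Asp was lost on ranks, that of Lys on ranks, after quantile normalization and without centring, and that of Ser on ranks and without WT disome replicate 1. Glu at 0.24 (95% interval 0.02 to 0.47) and Ile at 0.21 (0.02 to 0.40) had limma adjusted p-values of 0.0787 and 0.0733 and did not pass.

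**Figure D2:**
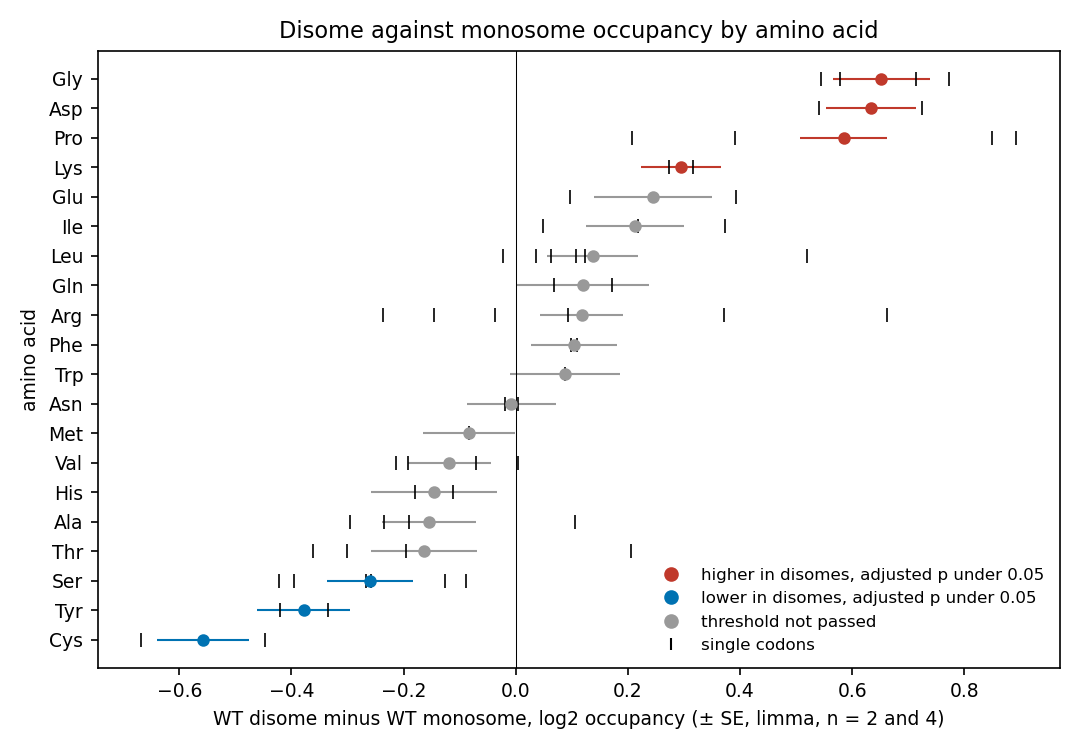
Difference of WT disome over WT monosome occupancy (log2) for each of the 20 amino acids, as the mean of its synonymous codons with the limma SE as a bar and single codons as ticks, coloured by direction where the adjusted p was under 0.05. Gly, Asp, Pro and Lys lie to the right and Ser, Tyr and Cys to the left, while the ticks of Pro, Arg and Leu spread far more widely than those of Gly.

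Proline held the codons that rose most. Its ring makes it a poor partner in peptide bond formation, and the factor eIF5A is known for relieving ribosomes at proline-rich stretches. CCA had occupancies of 0.957, 0.876, 0.939 and 0.972 in monosome libraries 1 to 4 and of 1.44 and 1.64 in disome libraries 1 and 2. CCU stood at 0.892, 0.992, 0.958 and 0.939 in monosomes and at 1.55 and 1.46 in disomes. In other words, both were ordinary codons by monosome occupancy and among the most occupied in disomes. CCA ranked between 20 and 37 of 61 in monosome libraries and 6 and 5 in disome libraries, and CCU between 20 and 34 against 5 and 7. The differences were 0.89 for CCA (SE 0.109, limma adjusted p = 9.70e-07), a 1.86-fold rise, and 0.85 for CCU (SE 0.109, limma adjusted p = 1.13e-06), a 1.80-fold rise.

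The other two Pro codons moved less. CCC rose by 0.39 (SE 0.110, limma adjusted p = 0.00622), from 0.848 to 0.958 in monosomes to 1.06 and 1.04 in disomes, and this call was lost without WT disome replicate 1, with monosome replicates 1 and 2 alone, without centring, on ranks and after quantile normalization. CCG showed 1.2, 1.45, 0.976 and 1.15 in monosomes against 1.22 and 1.2 in disomes, and its difference of 0.21 (95% interval -0.06 to 0.48) did not pass (limma adjusted p = 0.225). Its monosome libraries span both disome values. By mean occupancy CCG was the highest Pro codon in monosomes, while in disomes it lay below both CCA and CCU.

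Glycine rose on all 4 of its codons. Glycine has no side chain, and pairs of Gly with Pro or Asp belong to the motifs where eIF5A acts. GGA had monosome occupancies of 0.774, 0.945, 1.01 and 0.977 and disome occupancies of 1.44 and 1.36. GGG had 0.701, 0.883, 0.938 and 0.941 against 1.26 and 1.24. In both, monosome library 1 was the low one and the disome libraries lay clear of all 4. GGA differed by 0.77 (SE 0.116, limma adjusted p = 8.46e-06), GGG by 0.71 (SE 0.119, limma adjusted p = 2.92e-05), GGU by 0.58 (SE 0.109, limma adjusted p = 0.000137) and GGC by 0.54 (SE 0.110, limma adjusted p = 0.000287). All 4 calls held with each WT library left out in turn, while those of GGA and GGG were lost on ranks and that of GGA also after quantile normalization (difference 0.49, limma adjusted p = 0.0733). In ranks, GGG moved from 58, 35, 33 and 26 in monosomes to 9 in both disome libraries. In disome libraries 1 and 2, GGC reached ranks 18 and 12 and GGU ranks 16 and 13.

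The acidic residues began from high dwell. GAU showed 1.17, 1.26, 1.18 and 1.21 in monosomes and 1.78 and 1.74 in disomes. GAC, the other Asp codon, showed 1.6, 1.51, 1.35 and 1.37 against 1.86 and 1.88. Both Asp codons therefore rose from places already among the 14 most occupied in every monosome library to ranks 2 to 4 in disomes. The rise was 0.73 for GAU (SE 0.108, limma adjusted p = 8.46e-06) and 0.54 for GAC (SE 0.115, limma adjusted p = 0.00048). For a codon near the top, ranks leave little room, and neither call held on ranks. With libraries scaled to the same spread the difference of GAC was 0.15, after quantile normalization it was 0.05, and it passed in neither.

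Glutamate split between its codons. GAA had 2.40, 2.57, 2.19 and 2.30 in monosomes and 3.10 and 2.43 in disomes. The second disome value lay within the monosome range before centring, and above it after centring. The difference of 0.39 (SE 0.123, limma adjusted p = 0.0117) was 0.20 without WT disome replicate 1 (limma adjusted p = 0.321) and turned to -0.28 when libraries were scaled to the same spread (limma adjusted p = 0.0493), so the direction of GAA depended on the scaling. GAG stood at 1.19 to 1.52 in monosomes and at 1.27 and 1.21 in disomes, a difference of 0.10 (95% interval -0.15 to 0.35).

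Lysine and arginine gave smaller or isolated changes. Runs of Lys codons, AAA above all, are known to halt ribosomes. AAG rose by 0.32 (SE 0.107, limma adjusted p = 0.0197) and AAA by 0.27 (SE 0.108, limma adjusted p = 0.0455). AAA had occupancies of 1.05 to 1.14 in monosomes and of 1.2 and 1.14 in disomes. Its call was lost under each of the 5 other scalings, and without WT monosome replicate 1, 3 or 4 or WT disome replicate 1, while that of AAG was lost under 4 scalings and without WT monosome replicate 4.

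Among the 6 Arg codons, CGA stood out. It can be read through an inosine-adenosine wobble pair, and in yeast, where that is its sole reading, it is a textbook slow codon. CGA had monosome occupancies of 1.37, 1.5, 1.36 and 1.31 and disome occupancies of 1.99 and 1.88. It was among the 6 most occupied codons in every monosome library and ranked 2 and 3 in disomes. The difference was 0.66 (SE 0.112, limma adjusted p = 3.05e-05), and it held with each library left out, but it did not pass on ranks, where it was 2.25 places, or after quantile normalization, where it was 0.12. AGA, named after its values were seen, rose by 0.37 (SE 0.109, limma adjusted p = 0.00801), from 0.972 to 1.02 in monosomes to 1.19 and 1.07 in disomes. This call was lost without centring, with libraries scaled to the same spread, on ranks, after quantile normalization and without WT disome replicate 1. The other 4 Arg codons did not pass, and their differences ran from -0.24 for CGU to 0.09 for CGG. CGU was the least settled of them, with 0.535 in disome library 1 and 0.835 in library 2 against 0.856 to 0.920 in monosomes, and its difference was 0.07 without WT disome replicate 1.

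Of the branched aliphatic residues, whose codons number 13, 2 rose, beside 26.2% of all codons, and neither call held without WT disome replicate 1. UUA, a Leu codon, had 0.916, 0.885, 0.833 and 0.931 in monosomes and 1.23 and 1.03 in disomes, a difference of 0.52 (SE 0.115, limma adjusted p = 0.000739). The remaining 5 Leu codons lay between -0.02 and 0.12. AUC, an Ile codon, ranked 58 or 59 in every monosome library and 32 and 40 in disomes, with occupancies of 0.586 to 0.757 against 0.793 and 0.777. Its difference was 0.37 (SE 0.115, limma adjusted p = 0.0108), and without centring it was 0.20 and did not pass (limma adjusted p = 0.162). AUU, the least occupied codon by dwell, had 0.616, 0.540, 0.710 and 0.688 in monosomes and 0.651 and 0.655 in disomes, and after centring both disome libraries lay above, but the difference of 0.22 did not pass (limma adjusted p = 0.151).

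**Figure D3:**
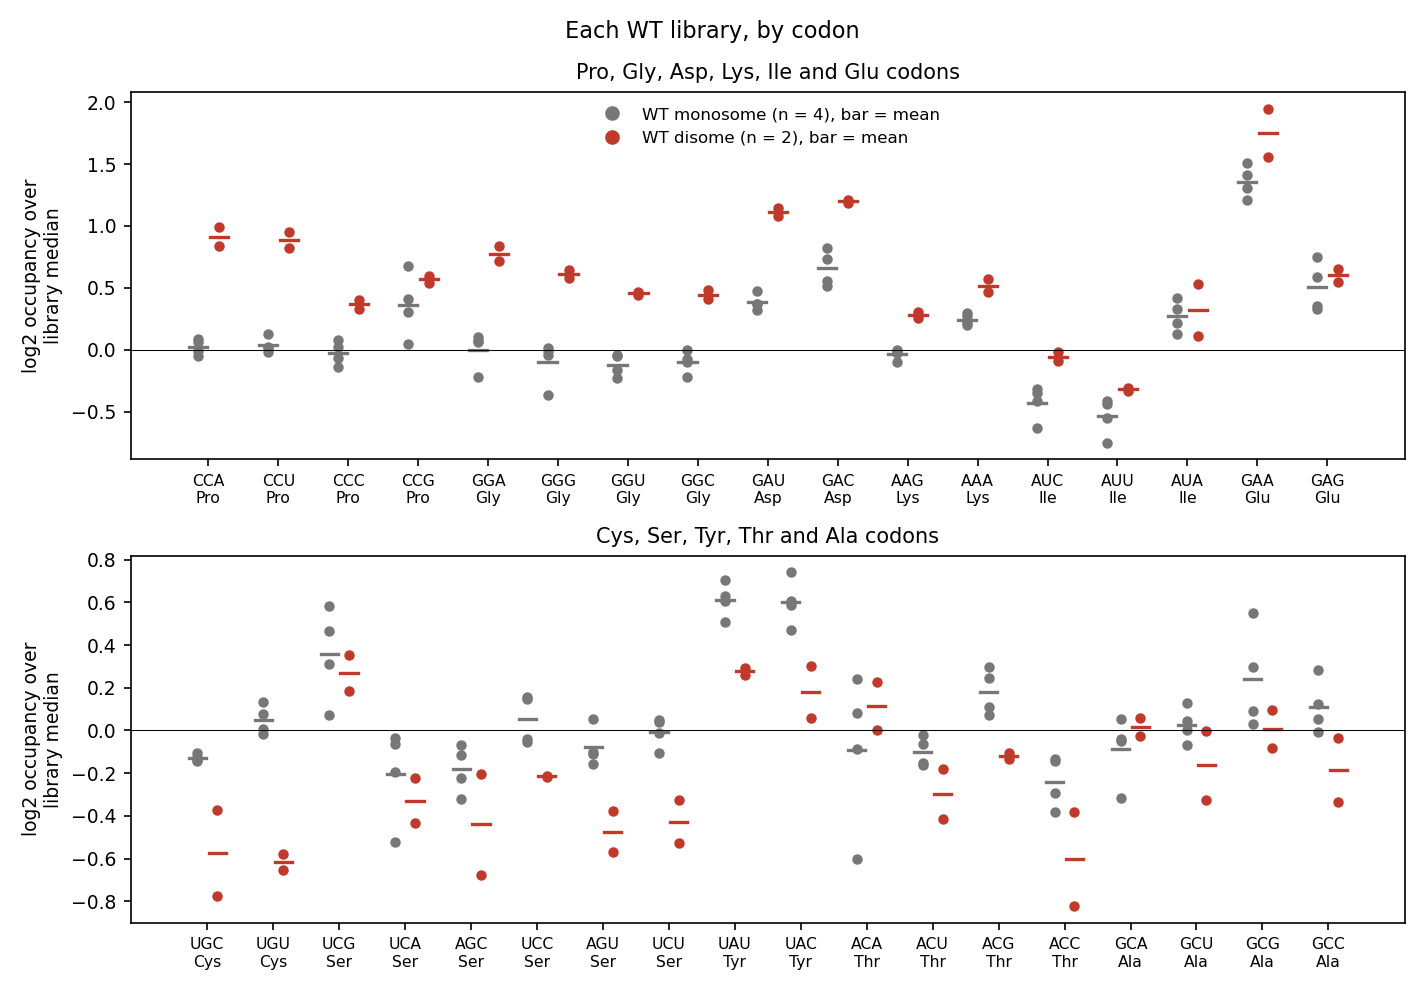
Log2 occupancy over the library median in each WT library, with 4 monosome libraries (grey) and 2 disome libraries (red) per codon and bars at the means. The libraries do not overlap at CCA, CCU, the 4 Gly codons and both Asp codons, which are higher in disomes, or at both Cys and both Tyr codons, which are lower, while CCG and GAG overlap.

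Cysteine fell most. Its thiol can be oxidised, and it is among the rarer residues of human proteins. UGU had occupancies of 0.893, 0.956, 1.03 and 0.936 in monosomes and 0.511 and 0.552 in disomes. UGC had 0.839, 0.832, 0.854 and 0.846 against 0.470 and 0.636. Both were middling to low by dwell and near the bottom in disomes, where UGU ranked 58 and 61. The change was -0.67 for UGU (SE 0.108, limma adjusted p = 2.34e-05) and -0.45 for UGC (SE 0.117, limma adjusted p = 0.00392). UGU was the sole lower codon whose call held with each library left out in turn. The call of UGC was lost without WT disome replicate 1.

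Tyrosine combined high dwell with ordinary presence in disomes. UAC had 1.51, 1.36, 1.31 and 1.42 in monosomes and 0.992 and 0.859 in disomes. UAU had 1.47, 1.40, 1.34 and 1.42 against 0.964 and 1.01. In monosomes both codons were among the 8 most occupied in every library, and in disomes they ranked between 20 and 27. The difference was -0.42 for UAC (SE 0.115, limma adjusted p = 0.00517) and -0.34 for UAU (SE 0.109, limma adjusted p = 0.0154), calls that were lost without WT disome replicate 2 and 1, respectively, and held under each of the 5 other scalings. Other aromatic residues did not follow. Trp UGG had 1.31 to 1.55 in monosomes and 1.21 and 1.48 in disomes, a difference of 0.09 (95% interval -0.15 to 0.33) that changed sign under 4 of the 5 other scalings. For Phe, UUU and UUC differed by 0.11 and 0.10 and did not pass. UUC changed sign without centring.

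The hydroxyl residues Ser and Thr held 10 codons, of which 4 fell and none rose by limma at an adjusted p under 0.05 (also none at an unadjusted p under 0.05), with a median difference of -0.26. Among all codons 14.8% fell and 26.2% rose, with a median of 0.05. UCU had 0.928, 0.938, 0.936 and 0.865 in monosomes and 0.558 and 0.658 in disomes, a difference of -0.42 (SE 0.111, limma adjusted p = 0.00392). AGU had 0.937, 0.844, 0.874 and 0.836 against 0.542 and 0.635, a difference of -0.40 (SE 0.112, limma adjusted p = 0.00626). All 6 Ser codons had a negative difference, and the remaining 4 did not pass: UCC at -0.27 (limma adjusted p = 0.058), AGC at -0.26, UCA at -0.13 and UCG at -0.09. For Thr, ACC differed by -0.36 (SE 0.125, limma adjusted p = 0.021) with overlapping libraries and ACG by -0.30 (SE 0.111, limma adjusted p = 0.0312). The Ala codon GCC had a difference of -0.30 (SE 0.119, limma adjusted p = 0.0471). Without WT disome replicate 1 the 5 codons that fell for Ser, Thr and Ala all lost their calls. ACC and ACG also lost theirs without WT monosome replicate 1 or 4, ACG without WT disome replicate 2, and GCC without WT monosome replicate 1, 2 or 3. On ranks, UCU, AGU and both ACC and GCC lost their calls. With libraries scaled to the same spread AGU, ACC and GCC lost theirs, ACC at -0.17, and after quantile normalization AGU and GCC did.

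By wobble base, codons ending in A stood apart from the other classes. Of 14 such codons 7 rose and none fell by limma at an adjusted p under 0.05 (none at an unadjusted p under 0.05), with a median difference of 0.24. Codons ending in U had 3 higher and 4 lower of 16 (median -0.13), those ending in C 4 higher and 4 lower of 16 (median -0.13), and those ending in G 2 higher and 1 lower of 15 (median 0.06), beside 16 higher and 9 lower among all 61. These are counts and not a test of the classes, since the third base is shared among amino acids that themselves differ. The 7 comprised CCA for Pro, GGA for Gly, UUA for Leu, GAA for Glu, AAA for Lys and both CGA and AGA for Arg, so that 6 amino acids were represented. On ranks all 7 lost their calls, and without WT disome replicate 1 UUA, GAA, AAA and AGA lost theirs.

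A ratio of synonymous codons within a library does not depend on the centring of the library and holds the amino acid constant, though it does move with scalings that change the spread or the ranks. Of 29 such ratios, 2 were higher in disomes by limma at an adjusted p under 0.05, or 6.9%, and 0 were lower, or 0%. At an unadjusted p under 0.05, 6 ratios differed, all of them higher, and the exact permutation test called 0. CCU over CCC had a log2 ratio of 0.06 ± 0.06 (SD, n = 4) in monosomes and 0.52 ± 0.04 (SD, n = 2) in disomes, a difference of 0.46 (SE 0.0755, limma adjusted p = 0.0152). CGA over CGG went from 0.61 ± 0.02 (SD, n = 4) to 1.18 ± 0.30 (SD, n = 2), a difference of 0.57 (SE 0.118, limma adjusted p = 0.0284). Without WT monosome replicate 1 neither ratio passed, without WT monosome replicate 3 or 4 that of CGA over CGG did not, and both calls were lost with libraries scaled to the same spread, on ranks and after quantile normalization. On ranks the ratio of CGA over CGG became a difference of places and turned to -4.25.

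Ratios of the A-ending over the G-ending codon shifted upward in 11 of 13 cases, with a median shift of 0.30, and 5 of the 6 ratios at an unadjusted p under 0.05 were of this kind. They were CGA over CGG and 4 others named after their values were seen, which did not pass after adjustment. The Pro ratio CCA over CCG shifted by 0.69 (limma adjusted p = 0.0589), the Leu ratio UUA over UUG by 0.46 (limma adjusted p = 0.0589), the Arg ratio AGA over AGG by 0.41 (limma adjusted p = 0.0618) and the Glu ratio GAA over GAG by 0.30 (limma adjusted p = 0.121). In all 4 the disome libraries lay above the monosome libraries. Among the 29 ratios that also held for CCU over CCC and CGA over CGG, which passed. It held too for ACA over ACG, GAU over GAC and GCU over GCC, which did not pass. For UCU over UCC and AUU over AUC the disome libraries lay below. By the mean ratio, the A-ending codon was the more occupied member of the pair in 7 of 13 cases in monosomes and in 12 of 13 in disomes. Disome libraries 1 and 2 differed in sign for GCA over GCG (0.06 and -0.04) and for GUA over GUG (0.56 and -0.28). The exceptions to the shift were the Lys ratio AAA over AAG at -0.04 and the Ser ratio UCA over UCG at -0.04. For Gly, GGA over GGG shifted by 0.06 (95% interval -0.11 to 0.22), so the rise of Gly was shared by both.

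Ratios of the U-ending over the C-ending codon showed no common direction, with 8 of 16 positive and a median shift of -0.01. Of these, 8 are read by tRNAs with G, or its derivative queuosine, at the first anticodon base, which pairs directly with C and by wobble with U. Their median shift was -0.01, with 4 positive. The other 8 are read by tRNAs with inosine there, and their median was 0.01, with 4 positive. The queuosine codons, those of Tyr, His, Asn and Asp, went opposite ways by amino acid, with both Asp codons higher and both Tyr codons lower. The A-ending codons whose tRNAs carry a thiolated uridine at that base, which serve Lys, Glu and Gln, had a median difference of 0.27, and 2 of 3 were called higher, beside 26.2% of all codons. Those were AAA and GAA, whose calls depended on the scaling as given above.

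**Figure D4:**
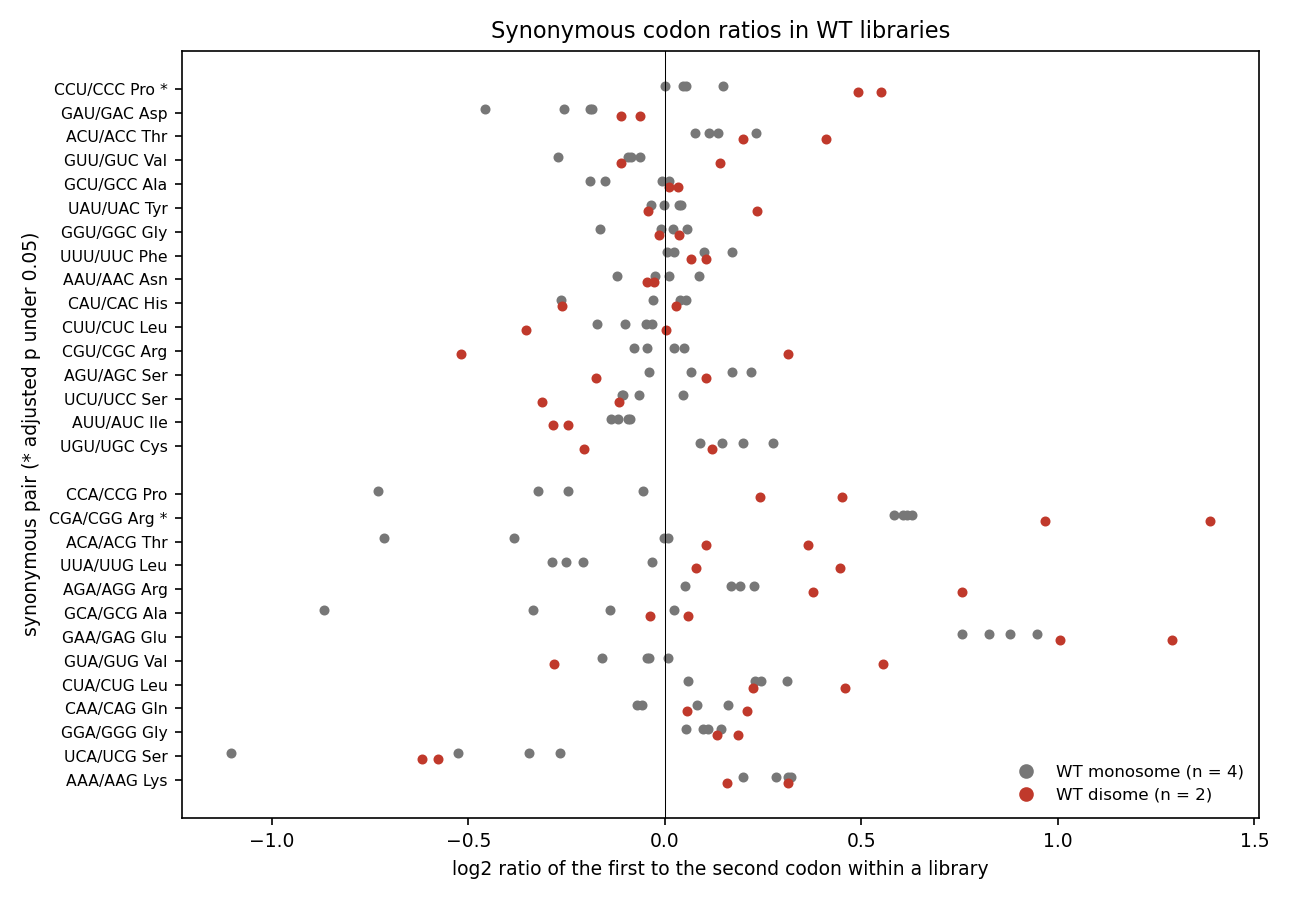
Log2 occupancy ratio of the first to the second codon of each of the 29 synonymous pairs within each WT library, monosome in grey (n = 4) and disome in red (n = 2), with U over C pairs above and A over G pairs below and an asterisk for an adjusted p under 0.05. Red points lie to the right of all grey points for several pairs, among them CCU over CCC, CGA over CGG and CCA over CCG. The U over C pairs scatter about the same place in both.

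Across the 61 codons the difference correlated at r = 0.172 with codon usage (log2) in the canonical human coding sequences, at r = 0.074 with the number of G and C bases and at r = 0.090 with mean monosome occupancy, as descriptions that share the same libraries. Outside Pro and Gly, 9 of 53 codons rose and 9 fell, with a median difference of -0.02. The 12 codons of Leu and Ser, whose tRNAs are those acetylated with the help of THUMPD1, had 1 higher and 2 lower with a median of -0.06, beside 26.2% higher and 14.8% lower among all codons.

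The KO libraries gave the same comparison in samples that the WT comparison did not use. In KO cells limma called 11 codons higher in disomes at an adjusted p under 0.05, or 18%, and 8 lower, or 13.1%. All 25 codons called in WT had a difference of the same sign in KO, and 17 of them were called there too. Across codons the differences correlated at r = 0.874, as a description. The disome libraries lay above all monosome libraries in both genotypes for 15 of 61 codons and below in both for 7 of 61. In WT alone these numbers were 18 and 11, and for 0 codons did the order turn. CCA differed by 0.83 in KO (limma adjusted p = 1.38e-05), CCU by 0.63 (limma adjusted p = 0.000588), GAU by 0.51 (limma adjusted p = 0.000805), UGU by -0.55 (limma adjusted p = 0.00173) and UAC by -0.47 (limma adjusted p = 0.00185). The called codons nearest 0 in KO were AAA at 0.01, ACG at -0.06 and AAG at 0.07, none of which passed there, and CGA stood at 0.23 (limma adjusted p = 0.0611). GGC at 0.25 (limma adjusted p = 0.0562) did not pass in KO either. By amino acid, Gly differed by 0.36 in KO, Asp by 0.43, Pro by 0.48, Lys by 0.04, Cys by -0.45, Tyr by -0.48 and Ser by -0.25. All of these passed there except Lys (limma adjusted p = 0.602). The ratio of CGA over CGG shifted by 0.33 in KO (limma adjusted p = 0.0328) and that of CCU over CCC by 0.20 (limma adjusted p = 0.201). Ratios of the A-ending over the G-ending codon shifted upward in 9 of 13 cases in KO, against 11 in WT. CCA over CCG, AGA over AGG, GAA over GAG and UCA over UCG also passed in KO. UCA over UCG stood at 0.71 (limma adjusted p = 0.0331) against -0.04 in WT. AGU over AGC passed in KO as lower, at -0.41 (limma adjusted p = 0.0206).

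The difference between genotypes was itself tested as the interaction of footprint kind and genotype in limma over all 12 libraries. It called 0 of 61 codons, or 0%, the lowest adjusted p being 0.199, and 9 codons were at an unadjusted p under 0.05. CGA had the lowest of these, with an interaction of -0.44, KO minus WT (limma unadjusted p = 0.00327). Without WT disome replicate 2, 1 codon passed, the Arg codon CGU, whose difference was then higher in KO by 0.49 (limma adjusted p = 0.0356).

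**Figure D5:**
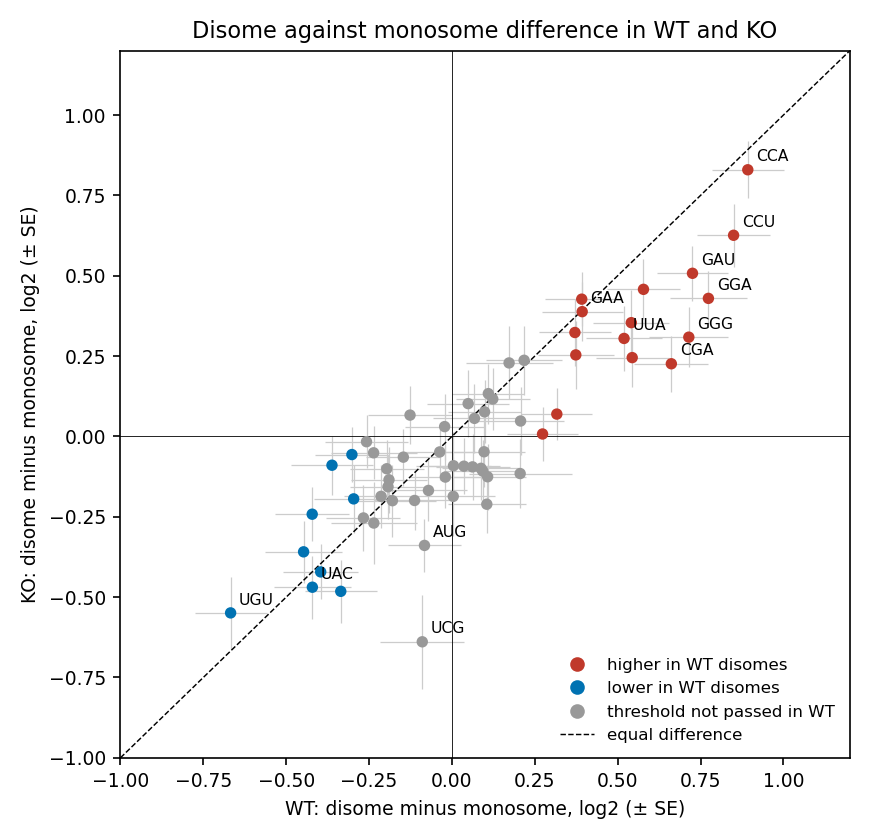
Disome minus monosome difference (log2, ± limma SE) of each of the 61 codons in WT cells (horizontal) and KO cells (vertical), coloured by the WT call, with the dashed line marking equal differences. All 16 codons higher in WT disomes lie above 0 in KO and all 9 lower ones below it, with most of the higher ones under the dashed line. Their place under the line is no test of the genotypes, since they were chosen by their WT values. The interaction test called 0 of 61 codons.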

How the data were processed

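Ribosome footprints of monosome and disome length were sequenced from WT and KO HEK293 cells. The authors trimmed reads, discarded those from noncoding RNA and aligned what was left to canonical transcripts by STAR (version not given in the sources used here), with the build listed as hg19 in the submitters' processing notes, and the deposited values are relative codon occupancies, a linear ratio per codon and library. The denominator and the depth were not given in the sources used here, and the offset only perhaps, as a tag shared by the names of both tables. Replicates were not pooled.

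Groups came from the sample labels. Values were taken to log2 with no pseudocount and no filter and centred on each library's median. Codons, amino acid means and within-library synonymous ratios were fitted with limma 3.58.1 in R 4.3.3 (lmFit and eBayes) and adjusted by Benjamini-Hochberg over 61, 20 and 29 features, with a threshold of 0.05. The eBayes step drew the variance of each codon towards a value shared by all codons, with 21.1 prior degrees of freedom. Classes were described by counts and medians. The fit was tested on simulated data. Codon usage was counted in 19535 canonical coding sequences of GENCODE release 44 (153 were left out for a missing start or broken frame). Figures used Python 3.11.15 and matplotlib 3.10.9. Named codons were the 12 highest and 12 lowest differences, the 3 most and 3 least occupied per footprint kind, all codons of amino acids that passed, synonymous pairs that passed and the extremes of a class. The members, lists and tests were chosen with earlier results of these data known. Alternatives changed the scaling, base composition, pseudocount, filter, variance model, libraries, replicate block and test.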

Additional observations from a re-analysis of the deposited data

Results flagged for a closer look

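WT monosome library 1 lay apart from the other 3 WT monosome libraries on Gly. For GGA its centred log2 occupancy was -0.22 against 0.06 to 0.10 in the others, a gap of 0.874 of the group's range. For GGG it was -0.36 against -0.04 to 0.02, a gap of 0.86 of the range, and for the mean of the Gly codons it was -0.26 against -0.04 to -0.01, a gap of 0.899. Each gap was above the 95% critical value of Dixon's test for 4 samples, as were 3 of the 42 groups examined, where chance gives about 2.1. Without this library the difference was 0.70 for GGA (limma adjusted p = 0.000344), 0.63 for GGG (limma adjusted p = 0.000628) and 0.59 for Gly (limma adjusted p = 0.000663).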

How the results depend on the processing

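The 25 codon calls became 8 on ranks and 0 by the exact permutation test, which cannot pass at this size, and ranged from 12 to 31 with single libraries left out. Of the 25, 19 remained called without centring, 18 with libraries scaled to the same spread and 15 after quantile normalization, and 7 under all 5 scalings. The 7 amino acid calls became 11 without centring, 11 with the same spread and 0 by the exact permutation test, and ranged from 6 to 10 with single libraries left out. The 2 pair calls became 0 with the same spread, on ranks, after quantile normalization, with monosome replicates 1 and 2 alone and by the exact permutation test, 6 after base composition correction, 5 with a mean-variance trend and 4 with all 12 libraries, and ranged from 0 to 7 with single libraries left out. The interaction of genotype ranged from 0 to 1. The difference of UGG reversed to -0.0886 without centring, -0.17 with the same spread, -5 places on ranks, -0.26 after quantile normalization, -0.0149 with monosome replicates 1 and 2 alone or the number as a replicate block, and -0.0188 when that block was joined to the base correction. UUC reversed to -0.0778 without centring, GAA to -0.28 with the same spread and CGA over CGG to -4.25 places on ranks. With libraries left out, CGU ranged from -0.539 to 0.067 and UGG from -0.0417 to 0.217. The cause was not tested. Of 616 values of single codons, amino acids and pairs under alternatives other than a left-out library, 483 kept direction and side of the threshold. The 483 include codons that passed neither in the main fit nor in the alternative.

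Monosome and disome libraries share the numbers 1 and 2, which the labels do not say mark a shared lysate. The study's methods describe the same digest for both kinds, with the lengths selected separately afterwards. Same-numbered libraries may therefore be paired, though the methods do not match library numbers. The deviations of same-numbered libraries correlated at r = 0.199 across codons. With the replicate block, 25 codons were called, 21 of them shared with the unblocked fit, 7 amino acids, with Ser lost, and 0 pairs. The differences in this fit equalled those with monosome replicates 1 and 2 alone, such as 0.8975 for CCA in both. Every named codon had the same SE in it, 0.1379. Those replicates without the block gave 18 called codons. The count of 25 therefore cannot show whether the codon calls hold under pairing. Depth is unknown, and the 2 disome libraries limit the precision of every difference.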
